A study of Mus musculus with 4 samples.

Results

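Mouse Zfp genes encode zinc finger proteins, the largest family of DNA-binding proteins in the genome. Most carry C2H2 fingers, short loops in which a pair of cysteines and a pair of histidines hold a zinc ion, and rows of such fingers read DNA bases. Many also carry a KRAB domain, which recruits the corepressor TRIM28 and, through it, enzymes that place repressive histone and DNA methylation, mainly on transposons and imprinted regions. The members described here were chosen by their annotation and their counts: protein-coding genes named Zfp and a number whose counts in all 4 libraries added up to 400 or more. This gave 223 members of 368 protein-coding genes with such names, in a table of 55487 genes. Zfp959, with 403 counts, and Zfp202, with 412, lay just inside this threshold, and Zfp763, with 394, and Zfp184, with 386, just outside. Total abundance thus selected the members, and it is given below as a description only.

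The cells were wild-type mouse embryonic fibroblasts (MEFs) in serum-containing medium, at passage 2 by the sample labels, while the article's text names the passage after it. Control MEFs were untreated, and PEDF-treated MEFs received 100 ng/mL of pigment epithelium-derived factor, a secreted protein of the serpin family, for 24 h. Each of 2 experiments used cells from its own embryos and gave 1 control and 1 PEDF library, so each treatment had 2 libraries of polyadenylated RNA. The study asked how PEDF alters gene expression in MEFs. Libraries held 14722848 to 18144640 counts. The 10 fibroblast markers summed to 38356 CPM, the counts scaled to the size of each library, in the control and 35547 CPM in the PEDF library of experiment 1. They summed to 44391 and 38190 CPM in experiment 2, so the sum was lower with PEDF in both. Most of this sum came from the collagens Col1a1, Col1a2 and Col3a1, all lower with PEDF in both experiments. Col1a1 alone went from 19417 to 17302 CPM in experiment 1 and from 24006 to 19320 CPM in experiment 2. Of the other markers, Dcn, Lum and Thy1 were higher in both, Pdgfra and Pdgfrb lower in both, and Vim and Twist1 differed in direction. The 5 pluripotency and germ cell markers summed to only 0.673 to 1.61 CPM. Of these, Pou5f1 and Dppa4 had no count, and Nanog, Ddx4 and Dazl had at most 17 counts in a library. Macrophage markers summed to 125 and 121 CPM in experiment 1 and to 79.3 and 99.7 CPM in experiment 2, and skeletal muscle markers summed to 414 and 506 CPM in the control and 470 and 557 CPM in the PEDF libraries of experiments 1 and 2. The part of these other cells in the results was not tested, and in bulk RNA fewer cells of a type and less RNA per cell cannot be told apart.

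The DNA that encodes the fingers of 3 members whose levels are followed most closely below is shown first, because these proteins differ in the feature that names the family. The sequences are from GENCODE M21 transcripts (GRCm38), 5′ to 3′ on the coding strand, and capitals mark the codons of the zinc-holding cysteines and histidines. Zfp57 encodes 421 residues with a KRAB match and 3 finger matches, the first at chr17:37009679-37009741 (plus strand) and the second at chr17:37009763-37009825.
Zfp57 finger 1: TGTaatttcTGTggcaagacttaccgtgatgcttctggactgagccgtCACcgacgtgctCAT
Zfp57 finger 2: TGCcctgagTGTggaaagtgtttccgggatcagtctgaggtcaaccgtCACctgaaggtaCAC
Zfp445 encodes 986 residues with a KRAB match and 12 finger matches, the first at chr9:122853399-122853461 (minus strand).
Zfp445 finger 1: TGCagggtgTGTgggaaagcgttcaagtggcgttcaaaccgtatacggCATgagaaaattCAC
Zfp706 encodes only 76 residues with 1 finger match and no KRAB match, and the finger's codons are split by an intron between chr15:37001896-37003700 (minus strand).
Zfp706 finger 1: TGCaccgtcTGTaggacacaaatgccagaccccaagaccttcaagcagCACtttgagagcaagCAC

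Zfp57, Zfp445 and Zfp469 were lower, and Zfp706 was higher, in the PEDF library than in the control library of both experiments. The log2 ratios of PEDF to control ran from -0.39 to -0.20 for the former and were 0.21 and 0.16 for Zfp706. With treatment as the only term, none of the 223 members passed edgeR's quasi-likelihood test at an adjusted p under 0.05, in a comparison that called 0.00516% of the 19384 genes tested, which was 1 gene, the nuclear RNA Malat1. DESeq2, which called 3 of 26183 genes, and limma, which called 0 of 19384, also called none of the members. At an unadjusted p under 0.05 the test found 12 members lower (5.38%, against 3.66% of all genes) and 2 members higher (0.897%, against 3.22%), the latter being Zfp706 and Zfp580, which is named after its values were seen. With the experiment as a block, 3 members fell (1.35%, against 2.07% of all genes) and 1 rose (0.448%, against 1.67%). Among genes with at least 400 counts, the blocked test called 6.11% of all and 1.79% of the members, so called members were not more frequent than called genes in general. DESeq2 with the block called 119 of 26183 genes and none of the members, and gave no adjusted p for 220 of the members. Markers of cell types were called in the same blocked edgeR fit. Of the 10 fibroblast markers, the collagens Col1a1 (log2 fold change -0.24) and Col1a2 (-0.12) and the receptor Pdgfrb (-0.22) fell, and the proteoglycans Dcn (0.35) and Lum (0.34) rose. Lyz2 (0.39), 1 of 6 macrophage markers, and Des (0.19) and Actc1 (0.28), 2 of 5 skeletal muscle markers, rose as well. Lyz2 had 60.5 and 62.6 CPM in the control and PEDF libraries of experiment 1 and 26.3 and 46.1 CPM in experiment 2. Its call thus rests mainly on experiment 2. Of the other macrophage markers, Cd68 was higher and Csf1r lower in both experiments, and Ptprc, Adgre1 and Aif1 differed in direction. With the length and GC correction Col1a2 (adjusted p = 0.999) and Lyz2 (adjusted p = 0.162, both in edgeR) were no longer called. The part of these cells in the members' values was not tested.

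ZFP57 is a KRAB zinc finger protein that binds methylated imprinting control regions and keeps their DNA methylation after fertilisation. Zfp57 (ENSMUSG00000036036, chr17:37001163-37010635) had 815 counts in the control and 679 in the PEDF library of experiment 1, and 1192 and 907 in experiment 2. After scaling, this was 55.2 and 43.7 CPM in experiment 1 and 66.8 and 50.9 CPM in experiment 2, so both PEDF libraries lay below both control libraries. Means were 61.0 ± 8.20 CPM in control and 47.3 ± 5.11 CPM in PEDF-treated MEFs (SD, n = 2). The fitted log2 fold change was -0.37 (SE 0.10), with an adjusted p of 0.626 without the block in edgeR. With the block it was 22.5% lower (log2 fold change -0.37, 95% interval -0.51 to -0.23), with an adjusted p of 2.85e-05 in edgeR. That fit leaves 1 residual degree of freedom, so this interval and p rest largely on variance shared across genes. DESeq2 with the block gave a standard error of 0.14, an unadjusted p of 0.00703 and no adjusted p. The blocked edgeR call was kept with a correction for exon length and GC content (log2 fold change -0.40, adjusted p = 1.47e-06 in edgeR). The size of the fall rested in part on single libraries: without the block, it was -0.22 when control 2 was left out, -0.26 without PEDF 1, and -0.50 without control 1.

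ZFP445, another KRAB zinc finger protein, acts beside ZFP57 in keeping imprints. Zfp445 (ENSMUSG00000047036, chr9:122844529-122866006) had 1034 counts in the control and 913 in the PEDF library of experiment 1, and 1357 and 1104 in experiment 2. This was 70.1 and 58.7 CPM in experiment 1 and 76.1 and 62.0 CPM in experiment 2, again with no overlap between the treatments. Its log2 fold change was -0.28 (SE 0.08) with an adjusted p of 0.696 without the block, and 0.00150 with it, both by edgeR. It remained past the threshold with the length and GC correction (log2 fold change -0.25, adjusted p = 0.00441 in edgeR). Leaving out 1 library at a time gave log2 fold changes between -0.33 and -0.22.

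Zfp469 is the counterpart of the human gene mutated in brittle cornea syndrome, and its annotation in the files includes collagen fibril organization. Zfp469 (ENSMUSG00000043903, chr8:122258620-122272650) had 1586 counts in the control and 1459 in the PEDF library of experiment 1, and 2027 and 1714 in experiment 2. The corresponding levels were 107 and 93.9 CPM in experiment 1 and 114 and 96.2 CPM in experiment 2, and both PEDF libraries lay below both controls. The log2 fold change was -0.22 (SE 0.07), with an adjusted p of 0.696 without the block and 0.00629 with it in edgeR. The call was lost with the length and GC correction (log2 fold change -0.08, adjusted p = 0.597 in the blocked edgeR fit). Counts and TPM together gave this gene 12777 counted bases, against a median exon length of 5212 over the members. The GENCODE M21 exons of the gene cover only 3082 bases, with no complete coding transcript. Its GC content was therefore read from this shorter annotation, and no protein could be read for it. With GENCODE M21 lengths for all genes in the correction, a choice made after seeing the data, Zfp469 was called (log2 fold change -0.24, adjusted p = 0.00144 in edgeR). The lengths differed for 246 genes between these corrections, Zfp469 among them.

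Zfp706 encodes a very small zinc finger protein that has been linked to the exit of embryonic stem cells from self-renewal. Zfp706 (ENSMUSG00000062397, chr15:36997027-37007773) had 1199 counts in the control and 1462 in the PEDF library of experiment 1, and 1452 and 1624 in experiment 2. Control MEFs had 81.2 and 81.4 CPM and PEDF-treated MEFs 94.1 and 91.2 CPM, so both PEDF libraries lay above both controls. The log2 fold change was 0.19 (SE 0.07), with an adjusted p of 0.696 without the block and 0.0450 with it in edgeR. With the length and GC correction it was 0.17 with an adjusted p of 0.0959, so that call was lost as well.

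**Figure D1:**
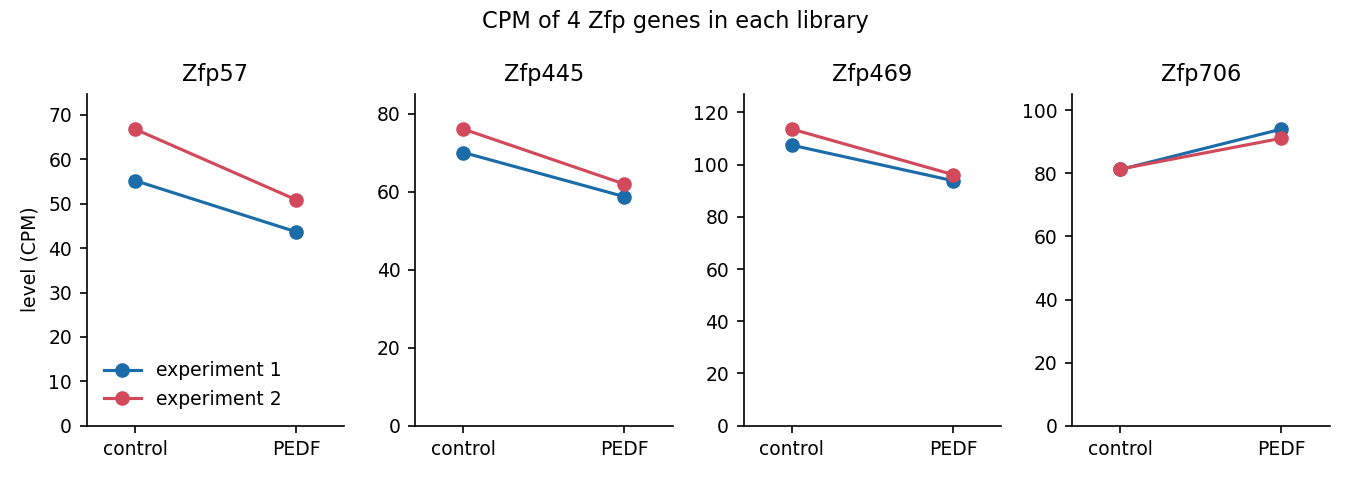
Level of Zfp57, Zfp445, Zfp469 and Zfp706 in CPM (vertical axis, from 0, scaled separately for each gene) in control and PEDF libraries. Each point is 1 library and each line joins the 2 libraries of an experiment. The lines of Zfp57, Zfp445 and Zfp469 go down and those of Zfp706 go up in both experiments. For Zfp57 the step between treatments, for example 66.8 to 50.9 CPM in experiment 2, stands beside a step between control libraries from 55.2 to 66.8 CPM.

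The blocked test was also run with each library's trend over exon length and GC content removed. With this correction, 3 members fell (1.35%, against 1.16% of all genes) and none rose (against 0.954% of all genes). At an unadjusted p under 0.05 the corrected edgeR fit had 17 members lower (7.62%, against 5.9% of all genes) and 9 higher (4.04%, against 5.66%). The 3 that fell were Zfp57, Zfp445 and Zfp948, the last named after its values were seen. Zfp948, a KRAB member with 15 finger matches, had 24.7 and 21.1 CPM in the control and PEDF libraries of experiment 1 and 30.1 and 25.5 CPM in experiment 2. The control library of experiment 1 thus lay below the PEDF library of experiment 2, and the treatments overlapped. Its log2 fold change was -0.34 with the correction (adjusted p = 0.0314 in edgeR) and -0.24 in the blocked fit without it (adjusted p = 0.193). Without the block or the correction, leaving out 1 library at a time moved it from -0.24 to -0.08 without control 2, -0.11 without PEDF 1, -0.37 without control 1 and -0.38 without PEDF 2.

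The medians of the members as a group were close to 0. Their summed counts were 0.612% and 0.610% of the control and PEDF library in experiment 1, and 0.619% and 0.609% in experiment 2. The median log2 ratio of PEDF to control was 0.0029 in experiment 1 and -0.03 in experiment 2. In experiment 1, 110 members (49.3%) were lower with PEDF, against 49.1% of the other protein-coding genes with at least 400 counts. In experiment 2, 135 (60.5%) were lower, against 48.8% of those genes. Both experiments agreed in direction for 73 lower and 51 higher members, and the other 99 members went opposite ways. Among these other 10384 genes, 31.2% were lower and 33.3% higher in both experiments, against 32.7% and 22.9% of the members. In CPM, both PEDF libraries lay below both control libraries for 45 members (20.2%, against 18.4% of all genes) and above them for 31 (13.9%, against 18.9%). The fitted log2 fold change had a median of -0.02 over the members and 0.0012 over all genes tested.

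The ratios of the experiments were only loosely related across members. Pearson's r between them was 0.112 over the 223 members and 0.342 over the 10384 other protein-coding genes. Within an experiment these points share a pair of libraries, and the members had a median of 1215 counts in total against 2558 for the others, so r is given as a description. Zfp286 and Zfp930, both KRAB members, differed most between experiments. Zfp286 had 141 counts in the control and 100 in the PEDF library of experiment 1, and 114 and 159 in experiment 2, which gave log2 ratios of -0.57 and 0.48. Zfp930 had 89 and 146 counts in experiment 1 and 152 and 135 in experiment 2, with log2 ratios of 0.64 and -0.17. Neither gene's treatments were separated by library.

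**Figure D2:**
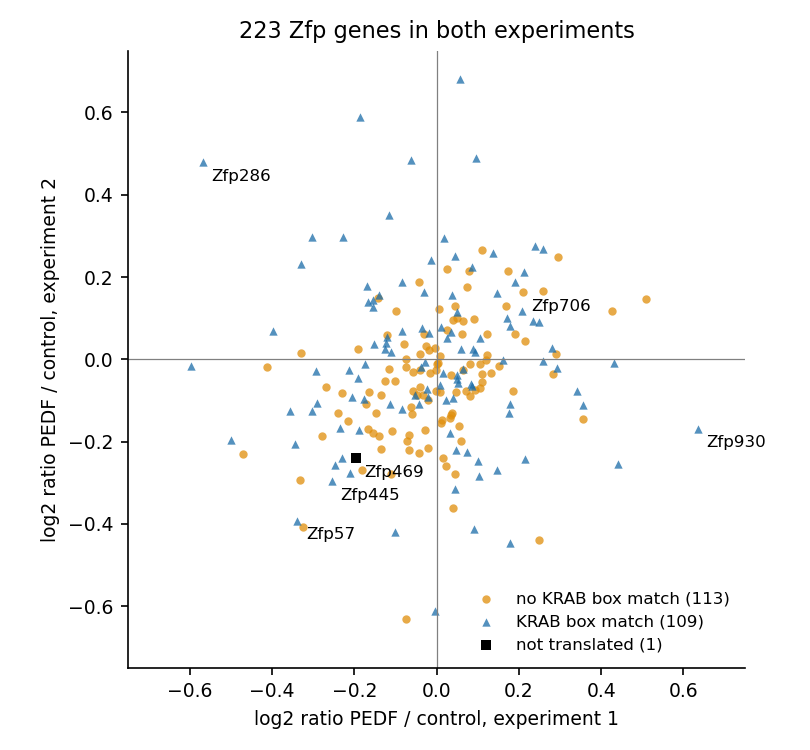
Log2 ratio of PEDF to control in experiment 1 (horizontal axis) and experiment 2 (vertical axis) for the 223 members, 1 point each, with triangles for the 109 members with a KRAB match, circles for the 113 without one and a square for Zfp469, which could not be translated. Points fill all quadrants, with 73 lower in both experiments and 51 higher in both. Zfp57, Zfp445 and Zfp469 lie in the lower left and Zfp706 in the upper right, while Zfp286 and Zfp930 lie in opposite quadrants.

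Each member was next set against other protein-coding genes with at least 400 counts whose exon length and mean level each lay within 0.32 of its own on the log2 scale. The members had between 44 and 481 such neighbours, with a median of 260. The median difference from the neighbours was 0.0020 in experiment 1 and -0.02 in experiment 2 on the log2 scale. Members below their neighbours numbered 110 in experiment 1 and 121 in experiment 2, with 69 below and 61 above in both. Where neighbours also had to match in GC content within 2 percentage points, 126 members were below and 96 above in experiment 2, and 74 below and 55 above in both experiments. Zfp57 was below its 428 neighbours' median by 0.37 in experiment 1 and by 0.42 in experiment 2, as log2 ratios of -0.34 and -0.39 were set against neighbours near 0. The differences were -0.23 and -0.25 for Zfp445 and 0.21 and 0.18 for Zfp706. For Zfp469 they were only -0.11 and -0.14, as the median of its neighbours of similar length and level was lower as well. These neighbours were matched at 12777 bases, the length chosen after seeing the data, and not at the annotated 3082. These differences from neighbours were not tested.

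**Figure D3:**
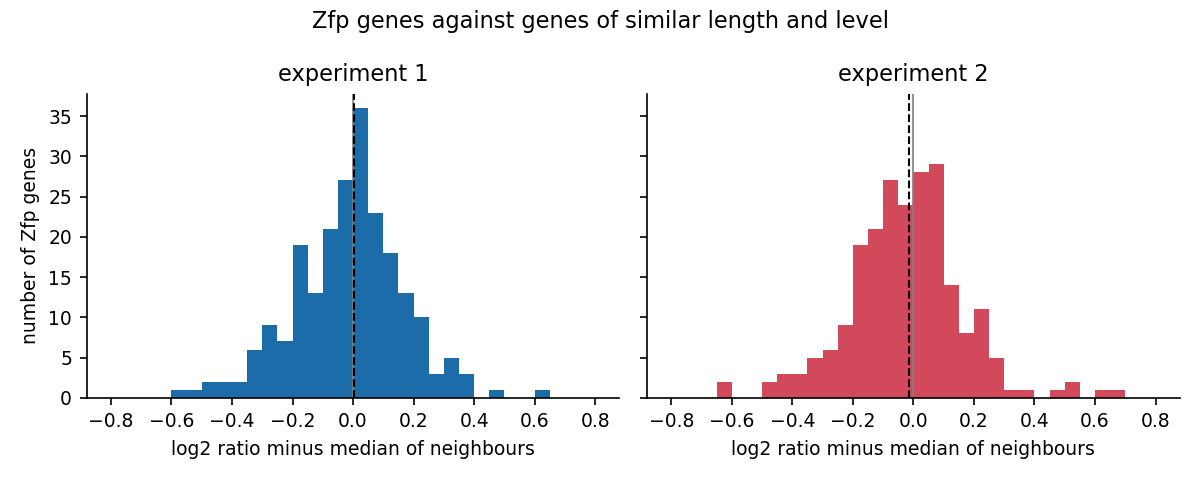
Number of Zfp genes (vertical axis) by the log2 ratio of PEDF to control minus the median of each gene's neighbours of similar length and level (horizontal axis, bins of 0.05), for experiment 1 (left) and experiment 2 (right). The dashed lines are the medians of the 223 members, 0.0020 and -0.02, beside 0 in grey.

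KRAB members were counted at lower levels than members without a KRAB domain, which is given without a test because the counts chose the members. A KRAB A box was found before the first finger in 109 members, and 107 had C2H2 fingers and no such match. Another 6 had no C2H2 match, among them Zfp36, which carries CCCH fingers. KRAB members had a median of 700 counts, 12 fingers and 2.42 CPM per kb of exon, and the others with fingers 2127 counts, 8 fingers and 5.27 CPM per kb. The KRAB members thus lay closer to the threshold of 400 counts that chose them. Their median log2 ratio was 0.01 in experiment 1 and -0.01 in experiment 2, with 29 lower and 26 higher in both. For members with fingers and no KRAB match it was -0.00066 and -0.05, with 42 lower and 23 higher in both. Against their neighbours the medians were -0.02 and 0.0092 for KRAB members and 0.0034 and -0.04 for those without the match. The r between experiments was -0.03 over the KRAB members and 0.368 over the members with fingers and no KRAB match, again without a test.

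By number of fingers, the medians did not run in one direction. Members with 1 to 4 fingers (34 genes) had median log2 ratios of -0.0088 and 0.0073 in experiments 1 and 2, and those with 10 to 14 fingers (75 genes) 0.03 and -0.0027. The medians were -0.02 and -0.07 for 5 to 9 fingers (62 genes), and 0.0075 and -0.09 for 15 or more (45 genes). Members lay on 20 chromosomes and in clusters, 100 of them starting within 100 kb of another member. Chromosome 7 held 52 members, 25 of them with a KRAB match, and their median log2 ratio was 0.04 in experiment 1 and -0.03 in experiment 2. Chromosome 17 held 31, 27 of them with a KRAB match and Zfp57 and Zfp948 among them, with medians of -0.07 and -0.01. Only uniquely mapped reads were counted, so near-identical copies within such clusters may be undercounted.

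**Figure D4:**
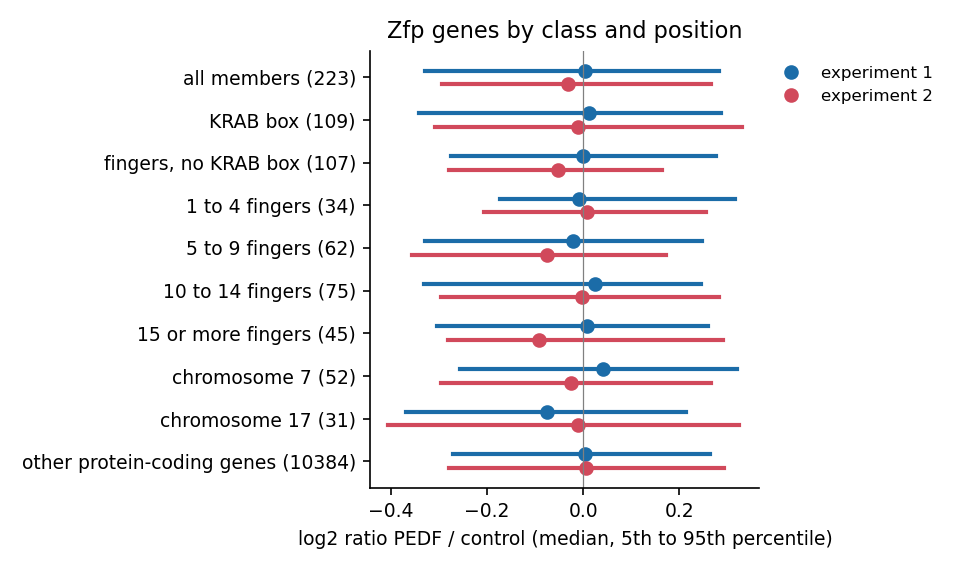
Median (points) and 5th to 95th percentile (lines) of the log2 ratio of PEDF to control over genes of each class, in experiment 1 (blue) and experiment 2 (red), with the number of genes in brackets. The medians of the plotted Zfp classes lie between -0.09 and 0.04, and the lines of every class cover both sides of 0, as do those of the other protein-coding genes.

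The most abundant members per kb of exon were Zfp503, Zfp703, Zfp362, Zfp207 and Zfp146, at 29.6, 24.1, 23.1, 22.4 and 21.8 CPM per kb over all libraries, against a median of 3.64 over the members. Zfp503, a repressor known from the developing striatum and breast epithelium, had 121 and 131 CPM in the control and PEDF libraries of experiment 1 and 126 and 121 CPM in experiment 2. Its treatments overlapped, and so did those of Zfp703, a related repressor. Zfp703 had 80.8 and 83.9 CPM in experiment 1 and 85.5 and 76.4 CPM in experiment 2, and an antisense gene, Gm45371, with 1105 counts of its own overlaps it. Zfp207, a partner of the checkpoint protein BUB3 on spindle microtubules, was the steadiest of them, with 149 to 150 CPM in every library. Zfp362 ranged from 68.6 to 72.1 CPM, and Zfp146, which was higher with PEDF in both experiments, from 66.9 to 75.9 CPM. None passed the test, with adjusted p-values between 0.826 and 0.993 without the block and between 0.527 and 0.981 with it in edgeR.

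Of 17 members with well known roles, edgeR with the block called 1, Zfp57, where it called 6.11% of all genes with at least 400 counts. With treatment as the only term, all 4 libraries and the filter of 10 counts, none was called. Zfp217, an oncogene product that represses transcription with CoREST, had 32.4 and 26.7 CPM in the control and PEDF libraries of experiment 1 and 33.1 and 29.1 CPM in experiment 2. Its treatments did not overlap, but its adjusted p was 0.699 without the block and 0.147 with it in edgeR. Zfp568, a KRAB repressor of a placental Igf2 transcript, had 62.0 and 50.7 CPM in experiment 1 and 61.8 and 57.4 CPM in experiment 2, without overlap, and adjusted p-values of 0.707 and 0.0861 in edgeR. Zfp462, a large protein of neural development, had 56.1 and 50.9 CPM in experiment 1 and 63.9 and 56.1 CPM in experiment 2, so its controls overlapped the PEDF libraries. Zfp281, a regulator of pluripotency, had 38.9 and 37.1 CPM in experiment 1 and 40.3 and 34.5 CPM in experiment 2, with an adjusted p of 0.414 with the block in edgeR.

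Zfp423, Zfp521, Zfp36 and Zfp809 were not called with or without the block. Zfp423, which commits cells to the adipocyte lineage, had 14.2 and 14.99 CPM in the control and PEDF libraries of experiment 1 and 12.8 and 12.7 CPM in experiment 2. Zfp521, which opposes it, had 76.7 and 80.0 CPM in experiment 1 and 73.0 and 76.2 CPM in experiment 2. Differences within experiments were thus no larger than those between them. Zfp36, or tristetraprolin, which speeds the decay of mRNAs with AU-rich elements, had 29.8 and 29.3 CPM in experiment 1 and 25.6 and 26.2 CPM in experiment 2. It is overlapped by the antisense gene Gm44710, with 485 counts. Zfp809, a KRAB protein that silences retroviruses, had 9.08 and 9.39 CPM in experiment 1 and 11.7 and 10.1 CPM in experiment 2, and its 668 counts left a standard error of 0.17 on the log2 fold change.

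The remaining members of this group had log2 fold changes near 0. Zfp106, an RNA-binding protein needed in motor neurons and the most counted member with 11332 counts, had a log2 fold change of -0.04 (SE 0.07). Zfp91, a ubiquitin ligase, had -0.07 (SE 0.08), and Zfp148, a transcription factor also called ZBP-89, 0.02 (SE 0.08). Zfp335, a regulator of neural progenitors and T cells, had -0.11 (SE 0.09) and overlaps Pcif1, with 4020 counts. Zfp746, or PARIS, a repressor of PGC-1α degraded through parkin, had 0.08 (SE 0.09). Leaving out 1 library at a time gave log2 fold changes from -0.21 to -0.016 for Zfp335, 0.016 to 0.13 for Zfp746, -0.086 to -0.0052 for Zfp106 and -0.10 to -0.041 for Zfp91. Where genes overlap, the counts depend on the strand setting, which is not given in the sources used here.

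Between the experiments, 3 members passed edgeR's test with treatment and experiment as terms (1.35%, against 4.49% of all genes). Zfp57 was higher in experiment 2 (log2 difference 0.25, SE 0.07, adjusted p = 0.0150 in edgeR), for both treatments. Zfp950, a KRAB member, was also higher (log2 difference 0.40, adjusted p = 0.0436 in edgeR), with 14.2 and 11.1 CPM in the control and PEDF libraries of experiment 1 and 17.3 and 15.9 CPM in experiment 2. Zfp771 was lower in experiment 2 (log2 difference -0.24, adjusted p = 0.0447 in edgeR), with 43.1 and 48.5 CPM in experiment 1 and 36.9 and 40.4 CPM in experiment 2. Zfp950 overlaps Grk5, with 850 counts. With the experiment as the only term, edgeR called none of the members.

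The partners through which KRAB proteins act were read from a list that held 22 corepressor and heterochromatin genes, of which 21 were matched. Without the block edgeR called none of them. With it 1 rose and 2 fell, where 1.67% of all genes rose and 2.07% fell, and all 3 were among the 20 with at least 400 counts, against 6.11% of all such genes. The gene below that level was Dnmt3b. Trim28, the corepressor itself, had 442 and 452 CPM in the control and PEDF libraries of experiment 1 and 449 and 451 CPM in experiment 2. Hdac1, a histone deacetylase, rose from 142 to 157 CPM in experiment 1 and from 141 to 163 CPM in experiment 2 (adjusted p = 0.0173 with the block in edgeR). Morc2a, an ATPase of heterochromatin, fell from 97.8 to 85.4 CPM and from 104 to 91.9 CPM (adjusted p = 0.0371). Sumo2, the other that fell, had 190 and 248 counts in experiment 1 and 926 and 226 in experiment 2, so its call rests on the second control library and its direction differed between experiments. With the length and GC correction only Dnmt3a, a DNA methyltransferase, was called in this list, as higher (log2 fold change 0.21, adjusted p = 0.0127 in edgeR), which is 1 of 21 genes against 0.954% of all. Without the correction its blocked log2 fold change was 0.07 (adjusted p = 0.680 in edgeR), from 99.3 and 105 CPM in experiment 1 and 90.4 and 93.3 CPM in experiment 2. With the correction Hdac1 had a log2 fold change of 0.15 and Morc2a -0.15, with adjusted p-values of 0.0720 and 0.137 in edgeR.

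RNAs from imprinted domains, where ZFP57 and ZFP445 are known to act, were read from a list of 12 nuclear-retained RNAs, 5 of them imprinted. In this list edgeR called only Malat1 without the block. With the block Malat1, Neat1 and Meg3 fell (3 of 12, against 2.07% of all genes), and with the length and GC correction Malat1 and Meg3 (2 of 12, against 1.16%). All 3 called with the block were among the 9 listed RNAs with at least 400 counts, where that fit called 6.11% of all such genes. Meg3, the maternally expressed RNA of the Dlk1-Dio3 domain, had 513 and 353 CPM in the control and PEDF libraries of experiment 1 and 658 and 493 CPM in experiment 2. The control library of experiment 1 lay above the PEDF library of experiment 2 by a small margin, so the treatments did not overlap. Its log2 fold change was -0.48 with the block (adjusted p = 8.59e-24 in edgeR), and the adjusted p without it was 0.781. Rian, of the same domain, had 655 and 623 CPM in experiment 1 and 746 and 714 CPM in experiment 2 and was not called, and neither were Mirg, Kcnq1ot1 and Airn. Kcnq1ot1 and Airn, with only 53 to 107 counts in a library, were lower with PEDF in both experiments, with blocked log2 fold changes of -0.54 and -0.47 and adjusted p-values of 0.205 and 0.259 in edgeR. With the length and GC correction these log2 fold changes were -0.26 and -0.48, with -0.33 for Meg3, -0.05 for Mirg and 0.08 for Rian. The log2 ratios in experiments 1 and 2 were -0.19 and -0.86 for Kcnq1ot1, -0.44 and -0.49 for Airn and -0.54 and -0.42 for Meg3. They were -0.07 and -0.06 for Rian and -0.21 and -0.01 for Mirg. Of the other listed RNAs, Malat1 (-0.67 and -0.64), Neat1 (-0.21 and -0.41), Firre (-0.24 and -0.24) and Ftx (-0.30 and -0.45) were also lower in both. Tug1, Miat and Pvt1 differed in direction between experiments. Lower levels with PEDF were thus not particular to the imprinted RNAs of this list. ZFP57 is known to bind the hexamer TGCCGC when its CG is methylated. In the RefSeq promoter windows, from 250 bases before a start to 50 after (GRCm38.p6), 11.61% of 32851 windows hold it on either strand. Such windows need not cover the imprinting control regions, and neither DNA methylation nor ZFP57 binding was measured here. Of 6 windows at these imprinted RNAs, 1 held the hexamer, which is the first of 2 windows at Meg3, with the match on the opposite strand, in chr12:109540794-109540823 (plus strand), shown with the match in capitals.
Meg3 promoter: gccaggggcactGCGGCAgatttttttttc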

How the data were processed

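Polyadenylated RNA of 2 control and 2 PEDF-treated MEF cultures was sequenced from directional libraries. Per the labels and the submitters' processing notes, the authors used Trimmomatic 0.38, HISAT2 2.1.0 on mm10, SAMtools 1.9 and featureCounts 1.6.3, and deposited raw counts of uniquely mapped reads per gene. The authors also deposited TPM values. The annotation and strand setting are not given in the sources used here.

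Counts were tested in R 4.3.3 with edgeR 4.0.16 (TMM factors, robust quasi-likelihood test, genes with at least 10 counts in total, Benjamini-Hochberg adjustment over 19384 genes, threshold 0.05), first with treatment as the only term. DESeq2 1.42.0, limma 3.58.1 on log2(TPM + 1), RLE factors, other filters, the experiment as a block, and a spline correction (5 degrees of freedom) for exon length and GC content were alternatives. The blocked fits leave 1 residual degree of freedom, so their standard errors and p-values rest largely on variance shared across genes. The design text states that embryos differed between experiments, and the control and PEDF libraries were therefore paired by experiment. As a check, the change from experiment 1 to 2 in control libraries was correlated with that in PEDF libraries (r = 0.425 across 10691 genes whose mean log2 CPM exceeded 3). Ratios within experiments used a prior count of 0.5. Standard errors came from the fold change and the F statistic, and 95% intervals used the normal quantile.

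Exon lengths were the union of GENCODE M21 exons. These matched the lengths implied by counts and TPM within 0.1% for 219 of the members, and for Zfp469, Zfp827, Zfp869 and Zfp91 the implied length was used. This replacement was chosen after seeing the data. C2H2 fingers were matched as C, 2 to 4 residues, C, 12 residues, H, 3 to 5 residues, H or C. A KRAB A box was called from a log-odds matrix of 36 residues, made from 76 seed sequences of these proteins. The tests were checked on simulated data with large changes, a common dispersion for all genes and no difference between experiments. That check does not cover changes as small as those reported here, or the pairing by experiment. Members, lists and tests were chosen with earlier results of these data known. Named genes were members called in either fit or between experiments, the 5 most abundant per kb, those nearest 400 counts, the 2 with the largest difference between experiments, and 17 with known roles. Zfp580, Zfp948 and Gm genes that overlap a member are named outside this rule.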

Additional observations from a re-analysis of the deposited data

How the results depend on the processing

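With treatment as the only term, the number of members called was 0, in a fit that called 1 of 19384 genes. It became 1 (Zfp57) without a filter on low counts, where 106 of 26183 genes were called. With the replicate block it was 4 (726 of 19384 genes), and with the block and the length and GC correction 3 (410 of 19384 genes). The same correction on GENCODE M21 lengths alone, added after seeing the data, gave 4. The block changed the call of no other member. The median log2 fold change of the members stayed between -0.04 and -0.0078 over all 13 settings. That of KRAB members was -0.027 with limma, and the median difference from neighbours in experiment 2 was -0.029 when GC content had to be within 2 percentage points too, which left 1 member without a neighbour. RLE factors cancel in that difference. The experiment as the only term gave 0 calls between experiments. With both terms, leaving out a library could not be fitted because no residual degree of freedom remains. Some named members that were not called changed sign, most of them near 0, but also Zfp930 (0.21), Zfp950 (-0.22) and Zfp809 (-0.10, all with treatment as the only term). With the block and correction the log2 fold change was 0.033 for Zfp106, 0.013 for Zfp286, -0.014 for Zfp36, -0.0056 for Zfp362, 0.00093 for Zfp91 (0.011 on GENCODE M21 lengths) and -0.11 for Zfp959. With limma it was -0.0040 for Zfp148, -0.020 for Zfp36, -0.012 for Zfp362 and -0.016 for Zfp959. Leaving out 1 library gave ranges from -0.013 to 0.052 for Zfp148, -0.16 to 0.069 for Zfp202, -0.31 to 0.27 for Zfp286, -0.11 to 0.11 for Zfp36, -0.025 to 0.047 for Zfp362, -0.085 to 0.16 for Zfp423, -0.027 to 0.082 for Zfp503, -0.12 to 0.014 for Zfp703, -0.27 to 0.10 for Zfp809, -0.011 to 0.49 for Zfp930, -0.51 to 0.0077 for Zfp950 and -0.023 to 0.033 for Zfp959. The cause was not tested. With 2 libraries per treatment the median standard error of a member was 0.126 on the log2 scale without the block and 0.116 with it, against 0.0948 and 0.0811 for the other protein-coding genes with at least 400 counts, so changes of this size could be missed.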
